A study of Mus musculus with 23 samples.

Results

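Genes that answer to low oxygen through the hypoxia-inducible factors (HIFs) were followed in endothelial cells and tumour cells sorted from mouse mammary tumours that were treated with nintedanib or left untreated. The set held 36 symbols taken by name: genes known to be induced by HIF, the HIF subunits and the proteins that restrain them, with glycolytic enzymes, Vegfa and carbonic anhydrases left out. Of these, 35 were measured among the 19938 genes of the table. Pgf1 had no transcript cluster that named it alone and has no value here, and Ero1l was measured under its current symbol Ero1a. Tumours were grown from Py2T cells, a murine breast cancer line, in the mammary fat pad of female FVB/N mice. Nintedanib, an inhibitor of the VEGF, FGF and PDGF receptor kinases, was given at 50 mg/kg body weight. The endothelial arrays numbered 3 for untreated mice, 3 for mice given the drug for 7 days and 5 for 21 days. The tumour cell arrays numbered 3, 4 and 5 for the same conditions. Untreated tumours were taken at the size of the 21-day tumours, so the 7-day groups had no untreated group of their own size. All tumours came from 1 implanted cell line in 1 mouse strain. The samples of a group are called biological replicates in the labels, and their mice are not named there. The values are log2 signals that the authors made with RMA, which gives the probe intensities of all arrays the same distribution before they are summarised. Each level is therefore relative to the other transcripts of its array. The cells were profiled in bulk, and fewer cells of a type and less RNA per cell cannot be told apart in such data.

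In cells with enough oxygen, prolyl hydroxylases of the EGLN family mark the HIF alpha subunits, the VHL ubiquitin ligase binds the marked protein, and the alpha subunit is degraded. When oxygen falls, the alpha subunits Hif1a and Epas1 (HIF-2 alpha) escape this, pair with the constant partner Arnt and bind DNA at short motifs with the core ACGTG or GCGTG. HIF control therefore acts largely on protein, and the messenger RNA of an alpha subunit does not report its activity, whereas the RNA of the target genes is the usual readout. Among the targets are Egln1 and Egln3 themselves, which feed back on the pathway, and in tumours under anti-angiogenic drugs these genes are commonly read as markers of low oxygen.

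The promoters of the genes that the results turn on are shown because HIF acts on its targets through this core. RefSeq promoter windows (GRCm38.p6, from 250 bases before to 50 after a start site) were found for 27 of the 35 genes. The 8 without one are Zfp395, Ndrg1, Plod2, Bnip3l, Stc1, Epas1, Bhlhe40 and Lox. The 250 bases before the start site are printed for Bnip3 (chr7:138909507-138909756), Egln3 (chr12:54203875-54204124), Ero1a (chr14:45318573-45318822) and Ankrd37 (chr8:45999851-46000100). All lie on the minus strand and are written 5′ to 3′ in the direction of transcription. Capitals mark ACGTG and GCGTG, or CACGT and CACGC where the core lies on the other strand.
Bnip3: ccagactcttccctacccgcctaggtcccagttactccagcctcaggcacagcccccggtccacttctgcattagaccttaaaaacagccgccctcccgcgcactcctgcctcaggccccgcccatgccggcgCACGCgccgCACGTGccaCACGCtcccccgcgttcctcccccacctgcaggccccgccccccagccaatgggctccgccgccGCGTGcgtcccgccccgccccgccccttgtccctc
Egln3: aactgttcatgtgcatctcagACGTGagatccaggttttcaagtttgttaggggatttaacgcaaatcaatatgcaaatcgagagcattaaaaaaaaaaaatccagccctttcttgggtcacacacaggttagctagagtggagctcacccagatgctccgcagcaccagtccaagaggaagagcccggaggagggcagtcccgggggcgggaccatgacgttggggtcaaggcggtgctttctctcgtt
Ero1a: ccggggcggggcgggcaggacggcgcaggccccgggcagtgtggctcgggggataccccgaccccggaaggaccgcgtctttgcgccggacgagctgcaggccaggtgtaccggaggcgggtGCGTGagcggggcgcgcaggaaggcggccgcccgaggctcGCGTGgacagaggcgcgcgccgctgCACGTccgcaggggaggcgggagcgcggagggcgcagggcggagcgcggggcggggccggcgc
Ankrd37: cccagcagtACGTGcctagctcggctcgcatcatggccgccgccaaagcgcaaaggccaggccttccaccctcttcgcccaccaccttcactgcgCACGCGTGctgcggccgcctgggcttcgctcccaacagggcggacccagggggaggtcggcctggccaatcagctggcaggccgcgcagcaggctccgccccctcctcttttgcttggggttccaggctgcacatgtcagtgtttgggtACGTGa
The Bnip3 stretch held 5 matches, counting CACGTG once on each strand. The Ankrd37 stretch held 4, with GCGTG and CACGC overlapping in 1 place, the Ero1a stretch held 3 and the Egln3 stretch 1. Over the whole windows, ACGTG or GCGTG on either strand was present for 24 of the 27 genes (88.9%), against 55.3% of the 15614 measured genes with a window and 46.7% of all 27025 genes of the promoter table. ACGTG alone was present for 18 genes (66.7%), against 24.4% and 21.8%, and GCGTG alone for 19 genes (70.4%), against 44.4% and 35.2%. The windows of the hypoxia genes were also richer in G and C, with a median of 66.0% against 57.3% in measured genes and 52.7% in all, and the 2 motifs are themselves rich in them. Neither motif was found in the windows of Vhl, Hif1an and Vldlr. These matches describe the letters of the windows and were not tested as binding sites.

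In untreated tumours all 12 endothelial markers were called higher in endothelial than in tumour cells, with a median difference of 6.26 on the log2 scale. The keratin gene Krt8 ran from 7.32 to 11.02 in endothelial arrays and from 11.22 to 11.65 in tumour arrays. The 12 epithelial markers as a list did not separate the untreated cell types, with 6 positive and 6 negative differences of endothelial from tumour cells, a median of 0.04 and 3 called lower in endothelial cells. The third and the fourth 21-day endothelial arrays and the first untreated one stood apart in 14 macrophage markers, with list means of 7.58, 6.96 and 7.63, against 4.63 to 6.09 on the other 8 endothelial arrays. The fourth 21-day endothelial array also had the highest mean of 12 epithelial markers, 7.30, against 5.36 to 6.14 on the other endothelial arrays. Replicate arrays correlated across genes at 0.935 or more in endothelial groups and at 0.983 or more in tumour groups. A typical gene had a residual SD (median over genes) of 0.255 in endothelial and 0.156 in tumour cells on the log2 scale. Dissociation stress genes (11 immediate early and heat shock genes) had positive differences for 11 of 11 genes in both treated groups of both cell types. Their medians were 0.86 at 7 days and 0.87 at 21 days in endothelial cells, and 0.84 and 0.28 in tumour cells. By limma 4 of the 11 were called higher in 7-day and 1 in 21-day tumour cells, against 0.396% and 0.0752% of all genes. In endothelial cells 0 were called at either time. The part of these stress genes in the results below was not tested.

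Most of the hypoxia genes had higher signals in treated than in untreated tumour cells. In 21-day tumour cells 32 of 35 had a positive difference, with a median of 0.27, against -0.01 over all genes. One gene, Bnip3, was called (limma, adjusted p under 0.05), where 18 of all 19938 genes, 0.0903%, were. At an unadjusted p under 0.05, 15 of the 35 genes were higher and 0 lower, against 5.97% and 4.16% of all genes. In 10 of the 35 every 21-day array was above every untreated array, against 2.99% of all genes. Of the fibroblast markers 10 of 10 were positive in this comparison, their median was 0.28 and limma called 0 (2 higher at an unadjusted p under 0.05), and 14 macrophage markers had a median of -0.00. The part of the fibroblast markers in this result was not tested.

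After 7 days no hypoxia gene was called in tumour cells. Here 28 of 35 genes had a positive difference, with a median of 0.15, against -0.01 over all genes. In the same comparison 11 of 12 epithelial markers were positive (median 0.34, 0 called, 2 higher at an unadjusted p under 0.05) and 2 of 10 fibroblast markers were called higher. By limma 0 hypoxia genes were called, where 101 of all genes, 0.507%, were. Without adjustment, p was under 0.05 for 7 higher and 0 lower genes, against 6.19% and 4.83% of all genes. In 5 genes the groups did not overlap and the treated arrays were higher, against 5.32% of all genes. Between 21 and 7 days 27 of 35 differences were positive, with a median of 0.11, against -0.00 over all genes. In that comparison 10 of 12 epithelial markers were negative (median -0.20, 0 called, 5 lower at an unadjusted p under 0.05), and of 10 fibroblast markers 1 was called higher and 2 lower. The part of these markers in the tumour cell results was not tested. Bnip3 was the 1 gene called, where 243 of all genes, 1.22%, were. At an unadjusted p under 0.05, 9 were higher and 1 lower in 21-day cells, against 6.42% and 5.44% of all genes. In 4 genes all 21-day arrays were above all 7-day arrays, against 2.94% of all genes. The comparisons within a cell type share arrays: both treated groups were set against the same 3 untreated arrays.

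In endothelial cells no hypoxia gene was called under treatment. After 21 days 25 of 35 genes had a positive difference, with a median of 0.19, against 0.01 over all genes. Of the epithelial markers 9 of 12 were positive there as well (median 0.32, 0 called and 0 at an unadjusted p under 0.05), and their part was not tested. By limma 0 hypoxia genes were called, as among all genes (0.0%). Without adjustment, p was under 0.05 for 4 higher and 2 lower genes, against 2.58% and 1.59% of all genes. In 3 genes all 21-day arrays were above all untreated arrays, against 2.14% of all genes. These 3 were Bnip3, Egln3 and Ero1a, the same 3 that had the smallest p among the hypoxia genes.

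After 7 days the endothelial cells showed no common direction. Here 18 of 35 differences were positive, with a median of 0.04, against 0.06 over all genes. By limma 0 were called, as among all genes (0.0%). At an unadjusted p under 0.05, 1 was higher and 3 lower, against 4.94% and 3.24% of all genes. In 1 gene the groups did not overlap with treated arrays higher, and in 4 with treated arrays lower, against 9.87% and 3.96% of all genes. Between 21 and 7 days 22 of 35 differences were positive, with a median of 0.25, against -0.04 over all genes. By limma 0 were called, as among all genes (0.0%). Taken unadjusted, p under 0.05 was reached by 7 higher and 1 lower genes, against 4.09% and 5.31% of all genes. In 5 genes all 21-day arrays were above all 7-day arrays, against 2.0% of all genes. The mean of the 14 macrophage markers ran from 5.54 to 7.63 in untreated, from 4.63 to 5.11 in 7-day and from 4.98 to 7.58 in 21-day endothelial arrays. Of these markers 13 of 14 had negative differences in 7-day against untreated cells (median -1.22) and 13 of 14 positive ones in 21-day against 7-day cells (median 1.25), with 0 called by limma and 2 at an unadjusted p under 0.05 in each. Of the pericyte markers 8 of 10 were positive in 7-day against untreated cells (median 0.30, 4 higher and 1 lower at an unadjusted p under 0.05) and 8 of 10 negative in 21-day against 7-day cells (median -0.39, 2 higher and 5 lower), with 0 called by limma. The part of these markers in the endothelial results was not tested. Without the 3 arrays high in these markers, a choice made after seeing the data, the median over the hypoxia genes was 0.08 between 21 and 7 days and 0.18 between 21-day and untreated cells.

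**Figure D1:**
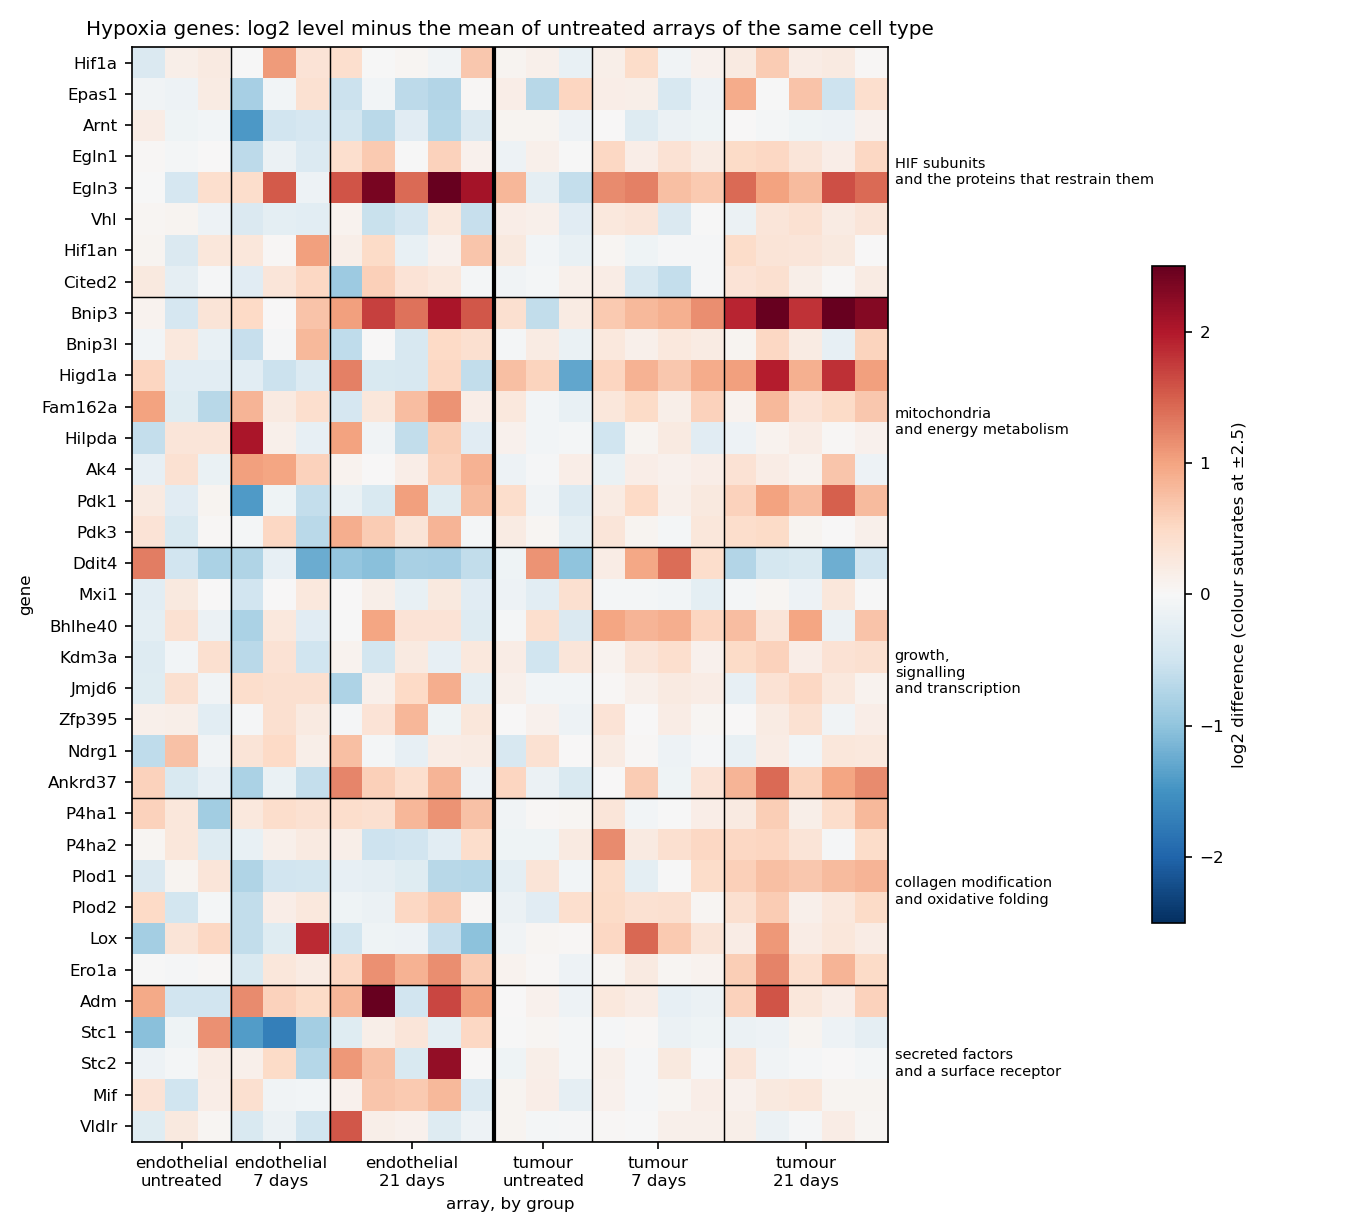
Log2 level of each of the 35 measured hypoxia genes on each array, minus the mean of the untreated arrays of the same cell type, with endothelial arrays on the left and tumour arrays on the right and genes grouped by role. The Bnip3 row is red on all 9 treated tumour arrays and strongest on the 5 arrays of 21 days, and Egln3 is red on all 5 endothelial arrays of 21 days.

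The mean over the 35 genes summarises each array. In untreated, 7-day and 21-day endothelial cells it ran from 7.11 to 7.19, from 6.98 to 7.27 and from 7.29 to 7.59. In tumour cells it ran from 6.61 to 6.81, from 6.90 to 6.99 and from 7.05 to 7.28, and no group overlapped another. In endothelial cells all 21-day arrays were above the other arrays, while 7-day and untreated arrays overlapped. In tumour cells 21 genes had group means in the order untreated, 7 days, 21 days, and in endothelial cells 7 did, namely Adm, Bnip3, Egln3, Ero1a, Mif, P4ha1 and Zfp395. The share of all genes in this order was not counted, so whether these counts exceed it is not known.

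No HIF subunit was called under treatment. Hif1a had signals of 8.65, 9.17 and 9.24 in untreated, 9.01, 10.09 and 9.35 in 7-day and 9.44, 9.0, 9.06, 8.93 and 9.69 in 21-day endothelial cells. In tumour cells Hif1a had 7.2, 7.26 and 6.94 in untreated, 7.28, 7.59, 7.04 and 7.24 in 7-day and 7.36, 7.77, 7.32, 7.35 and 7.16 in 21-day cells. The treated and untreated arrays overlapped in each cell type, and the 21-day differences were 0.21 ± 0.27 in endothelial and 0.26 ± 0.15 in tumour cells (log2 ± SE, adjusted p = 1 and 0.584 by limma). Epas1, the alpha subunit known for its high level in endothelium, had 11.08, 11.04 and 11.37 in untreated, 10.34, 11.09 and 11.55 in 7-day and 10.62, 11.10, 10.51, 10.44 and 11.19 in 21-day endothelial cells. In tumour cells its signals were 6.76, 5.89 and 7.12 in untreated, 6.75, 6.73, 6.20 and 6.46 in 7-day and 7.52, 6.58, 7.30, 6.08 and 7.01 in 21-day cells. Its levels also overlapped between treated and untreated arrays of each cell type, and the 21-day differences were -0.39 ± 0.27 and 0.31 ± 0.33. Arnt, the shared partner, had 8.23, 7.94 and 7.97 in untreated, 6.62, 7.57 and 7.62 in 7-day and 7.59, 7.37, 7.76, 7.33 and 7.68 in 21-day endothelial cells. All 8 treated endothelial arrays lay below the 3 untreated ones, by -0.78 ± 0.25 at 7 days and -0.50 ± 0.22 at 21 days, and neither difference was called (adjusted p = 0.549 and 1). Without the first 7-day endothelial array the 7-day difference was -0.45. In tumour cells Arnt had 8.50, 8.51 and 8.31 in untreated, 8.45, 8.13, 8.29 and 8.33 in 7-day and 8.45, 8.40, 8.33, 8.32 and 8.55 in 21-day cells, and the groups overlapped.

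Of the oxygen sensors, Egln3 had the larger differences. Egln3 is the hydroxylase whose own gene is most strongly induced by HIF. It had 4.60, 4.21 and 5.05 in untreated, 5.07, 6.15 and 4.5 in 7-day and 6.19, 6.99, 6.04, 7.76 and 6.70 in 21-day endothelial cells. All 5 arrays of 21-day endothelial cells were above all untreated ones and above 2 of the 3 arrays of 7 days, while the second 7-day array lay above the third 21-day one. The difference of 21-day from untreated endothelial cells was 2.12 ± 0.44, or 4.33-fold, and was not called (adjusted p = 0.635). In tumour cells Egln3 had 5.22, 4.17 and 3.79 in untreated, 5.57, 5.64, 5.15 and 5.04 in 7-day and 5.81, 5.41, 5.19, 5.99 and 5.80 in 21-day cells. The first untreated tumour array overlapped the treated ones, and the other 2 were below all of them. The differences in tumour cells were 0.96 ± 0.30 at 7 days and 1.25 ± 0.29 at 21 days, with adjusted p = 0.218 and 0.16. Both were called when the first untreated tumour array was left out, at 1.37 (adjusted p = 0.0451) and 1.66 (adjusted p = 0.0371). The 7-day difference fell to 0.66 without the third untreated tumour array, and its adjusted p by limma ran up to 0.914 over the alternative fits. Egln1, the hydroxylase that sets the basal turnover of HIF alpha, had 7.83, 7.75 and 7.80 in untreated, 7.14, 7.65 and 7.46 in 7-day and 8.21, 8.45, 7.77, 8.37 and 7.89 in 21-day endothelial cells. Its 7-day endothelial arrays were below all others of that cell type, so that the difference of 21-day from 7-day cells was 0.73 ± 0.18 and that of 7-day from untreated cells -0.38 ± 0.20 (adjusted p = 0.38 and 0.66). In tumour cells Egln1 had 7.23, 7.47 and 7.34 in untreated, 7.87, 7.51, 7.71 and 7.56 in 7-day and 7.82, 7.87, 7.66, 7.51 and 7.86 in 21-day cells. Every treated tumour array was above every untreated one, with differences of 0.31 ± 0.11 and 0.40 ± 0.11 that were not called (adjusted p = 0.308 and 0.234). Vhl, the recognition subunit of the ubiquitin ligase, and Hif1an, the asparaginyl hydroxylase that blocks the alpha subunits from their coactivators, had 21-day differences of -0.24 ± 0.19 and 0.25 ± 0.26 in endothelial cells. In tumour cells their 21-day differences were 0.21 ± 0.17 and 0.27 ± 0.11, none of them called. Cited2, which competes with the alpha subunits for the coactivators CBP and p300, differed by 0.05 ± 0.32 in endothelial and 0.22 ± 0.16 in tumour cells at 21 days.

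Bnip3 was the one gene of the set that rose under treatment by the test over all genes. It encodes a receptor on the outer mitochondrial membrane that directs mitochondria to autophagy. In untreated, 7-day and 21-day tumour cells its signals were 6.36, 5.33 and 6.16, then 6.61, 6.75, 6.83 and 7.11, then 7.86, 8.50, 7.75, 8.62 and 8.24. No array of a later group overlapped an earlier one. Bnip3 rose by 2.24 ± 0.25 in 21-day against untreated tumour cells, 4.74-fold (limma, adjusted p = 0.00811, n = 5 and 3), where it had rank 4 of 19938 genes by the positive difference and rank 2 by p. It also rose by 1.37 ± 0.23 in 21-day against 7-day tumour cells (limma, adjusted p = 0.0163, n = 5 and 4), and this call was lost when the first 7-day tumour array was left out (1.29, adjusted p = 0.0522). The 7-day difference of 0.88 ± 0.26 was not called (adjusted p = 0.186), and it was 0.57 without the second untreated tumour array. In endothelial cells Bnip3 had 5.51, 5.01 and 5.75 in untreated, 5.92, 5.44 and 6.13 in 7-day and 6.45, 7.13, 6.78, 7.46 and 6.98 in 21-day cells. All 21-day endothelial arrays were above the 6 others, while 7-day and untreated arrays overlapped. The 21-day endothelial difference was 1.54 ± 0.25, 2.9-fold, and was not called (adjusted p = 0.324). It was called in a fit over all 23 arrays, with the same difference and adjusted p = 0.0196, as was Egln3 (adjusted p = 0.0337). That fit shares 1 estimate of the spread between the cell types. The median residual SD was 0.255 in endothelial and 0.156 in tumour cells. The first 21-day endothelial array had the lowest Krt8 signal of all endothelial arrays, 7.32. Its Bnip3 and Egln3 signals of 6.45 and 6.19 were above every untreated endothelial array, and its Bnip3 was the lowest of the 21-day endothelial arrays. The fourth 21-day endothelial array had the highest Krt8, 11.02, and the highest Bnip3 and Egln3 of all endothelial arrays, 7.46 and 7.76. The part of epithelial cells in these signals was not tested. Without the 3 arrays high in macrophage markers the 21-day endothelial differences were 1.48 for Bnip3, 2.0 for Egln3 and 0.76 for Ero1a. A second cluster that the platform assigns to Bnip3 had 21-day differences of 1.47 in endothelial and 2.57 in tumour cells, and correlated with the first at 0.908 over the 23 arrays.

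**Figure D2:**
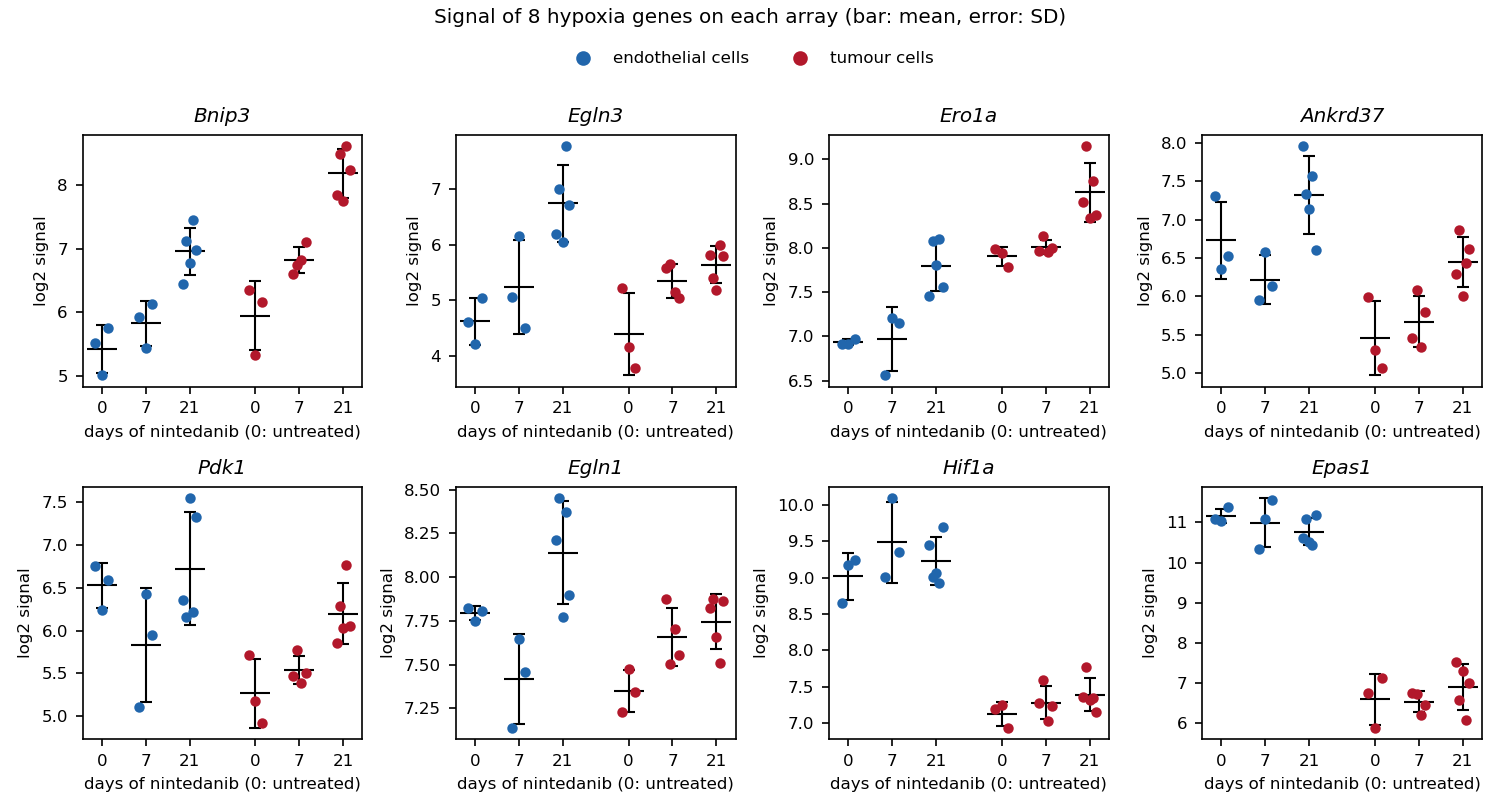
Log2 signal of 8 hypoxia genes on each array (points) with the group mean (bar) and SD (error bar), against days of nintedanib, for endothelial cells (blue, left) and tumour cells (red, right). Bnip3 in tumour cells climbs from untreated to 7 to 21 days with no overlap, Ero1a and Egln3 are highest in the 21-day groups of both cell types, and Hif1a and Epas1 differ by cell type and overlap between treatments.

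The other mitochondrial and metabolic genes had no call under treatment. Pdk1, a kinase that shuts off pyruvate dehydrogenase and so keeps pyruvate out of the mitochondria, had 5.71, 5.18 and 4.92 in untreated, 5.47, 5.77, 5.39 and 5.51 in 7-day and 5.85, 6.28, 6.03, 6.77 and 6.06 in 21-day tumour cells. All 21-day tumour arrays were above all others, and the difference from untreated cells was 0.93 ± 0.21 (adjusted p = 0.139). In endothelial cells Pdk1 had 6.76, 6.24 and 6.59 in untreated, 5.11, 6.43 and 5.94 in 7-day and 6.36, 6.16, 7.55, 6.22 and 7.33 in 21-day cells. The third and the fifth 21-day endothelial arrays were above the rest, and the 21-day difference was 0.19 ± 0.39. Higd1a, a small protein of the respiratory chain supercomplexes, had 8.58, 7.77 and 7.77 in untreated, 7.78, 7.50 and 7.70 in 7-day and 9.30, 7.65, 7.63, 8.56 and 7.43 in 21-day endothelial cells. In tumour cells it had 7.71, 7.53 and 5.66 in untreated, 7.51, 7.84, 7.64 and 7.90 in 7-day and 8.0, 8.94, 7.85, 8.80 and 8.0 in 21-day cells. The third untreated tumour array was far below the other tumour arrays, and every 21-day tumour array was above the 3 untreated ones. The 21-day differences of Higd1a were 0.08 ± 0.40 in endothelial and 1.35 ± 0.41 in tumour cells, and its second cluster gave -0.72 and 1.32. Without the third untreated tumour array the tumour difference was 0.70. Ak4, a mitochondrial adenylate kinase, had 4.85, 5.43 and 4.89 in untreated, 6.09, 6.04 and 5.63 in 7-day and 5.15, 5.06, 5.23, 5.62 and 5.92 in 21-day endothelial cells. All 7-day endothelial arrays of Ak4 were above the untreated ones, by 0.86 ± 0.25, which was the smallest p of the set in that comparison (adjusted p = 0.549). In tumour cells Ak4 ran from 4.98 to 5.84 over all 12 arrays. The second cluster of Ak4 did not follow the first across arrays (r = 0.0705). Fam162a, a mitochondrial protein linked to cell death under hypoxia, had 8.97, 7.65 and 7.27 in untreated, 8.81, 8.18 and 8.39 in 7-day and 7.54, 8.24, 8.74, 9.09 and 8.12 in 21-day endothelial cells. In tumour cells its signals were 9.47, 9.14 and 9.03 in untreated, 9.49, 9.70, 9.36 and 9.79 in 7-day and 9.29, 10.02, 9.56, 9.69 and 9.88 in 21-day cells, and the 21-day differences were 0.38 ± 0.42 in endothelial and 0.48 ± 0.16 in tumour cells. The first untreated endothelial array was the highest of its group, and treated and untreated arrays overlapped in each cell type. Bnip3l, the paralogue of Bnip3 with the same role in mitophagy, Hilpda, a lipid droplet protein that restrains lipolysis, and Pdk3, another pyruvate dehydrogenase kinase, had 21-day differences of -0.02, 0.13 and 0.53 in endothelial cells. In tumour cells these were 0.23, 0.06 and 0.22.

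Among regulators of growth and transcription, Ddit4 had negative 21-day differences in both cell types (-0.85 in endothelial and -0.65 in tumour cells), without a call. These rest on single untreated arrays. The endothelial difference was -0.22 without the first untreated endothelial array. The tumour difference was -0.09 without the second untreated tumour array and -1.16 without the third. At 7 days the tumour difference was positive, 0.75, and was 1.31 without the second and 0.25 without the third untreated tumour array. Ddit4 encodes REDD1, an inhibitor of mTORC1 that is induced by hypoxia and by other stresses. It had 10.87, 9.13 and 8.80 in untreated, 8.84, 9.40 and 8.36 in 7-day and 8.63, 8.54, 8.79, 8.76 and 8.99 in 21-day endothelial cells. In tumour cells it had 7.90, 9.12 and 6.99 in untreated, 8.19, 8.97, 9.40 and 8.45 in 7-day and 7.28, 7.56, 7.61, 6.77 and 7.53 in 21-day cells. The untreated tumour arrays were spread over more than 2 log2 units, and all 21-day tumour arrays were below all 7-day ones. The difference of 21-day from 7-day tumour cells was -1.40 ± 0.37 and was not called (adjusted p = 0.106), but it was without the second or without the third untreated tumour array, which left the difference as it was (adjusted p = 0.0300 and 0.0458). In the same comparison 11 of 11 dissociation stress genes had negative differences, with a median of -0.46 and 2 called lower, and their part in the Ddit4 result was not tested. Ankrd37, an ankyrin repeat protein whose gene is a direct HIF target, had 7.30, 6.35 and 6.53 in untreated, 5.95, 6.57 and 6.13 in 7-day and 7.96, 7.33, 7.14, 7.57 and 6.6 in 21-day endothelial cells. All 21-day endothelial arrays were above the 7-day ones, by 1.11 ± 0.31 (adjusted p = 0.399), and overlapped the untreated ones. In tumour cells Ankrd37 had 5.99, 5.30 and 5.06 in untreated, 5.46, 6.08, 5.34 and 5.80 in 7-day and 6.29, 6.86, 6.0, 6.43 and 6.62 in 21-day cells. All 21-day tumour arrays were above the untreated ones, by 0.99 ± 0.24 (adjusted p = 0.181). Bhlhe40, a transcriptional repressor, had 8.57, 9.20 and 8.68 in untreated, 8.02, 9.07 and 8.53 in 7-day and 8.81, 9.81, 9.17, 9.15 and 8.49 in 21-day endothelial cells. In tumour cells its signals were 8.32, 8.81 and 8.01 in untreated, 9.37, 9.24, 9.29 and 8.91 in 7-day and 9.15, 8.68, 9.37, 8.24 and 9.09 in 21-day cells. The 4 arrays of 7-day tumour cells were above the 3 untreated ones, by 0.82 ± 0.25 (adjusted p = 0.206), and the 21-day arrays overlapped both. Ndrg1, a stress response gene, had 8.68, 10.03 and 9.22 in untreated, 9.62, 9.81 and 9.46 in 7-day and 10.06, 9.25, 9.11, 9.50 and 9.51 in 21-day endothelial cells. In tumour cells Ndrg1 had 7.88, 8.66 and 8.28 in untreated, 8.49, 8.29, 8.14 and 8.25 in 7-day and 8.08, 8.45, 8.21, 8.56 and 8.54 in 21-day tumour cells. It overlapped between treated and untreated arrays of each cell type, with 21-day differences of 0.18 and 0.10. The Myc antagonist Mxi1, the histone demethylase Kdm3a, the oxygenase Jmjd6 and the zinc finger protein Zfp395 had 21-day differences from 0.03 to 0.40 in tumour cells and from -0.01 to 0.26 in endothelial cells, the last of which was -0.54 on the second cluster of Zfp395.

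Enzymes that modify and fold collagen and other secreted proteins had positive differences in 21-day tumour cells and mixed ones in endothelial cells. All 6 had positive 21-day differences in tumour cells, with a median of 0.42, and 3 of 6 in endothelial cells, with a median of 0.03, none of them called. Ero1a, the oxidase that makes disulfide bonds in the endoplasmic reticulum, had 6.92, 6.91 and 6.97 in untreated, 6.56, 7.21 and 7.15 in 7-day and 7.46, 8.08, 7.80, 8.10 and 7.56 in 21-day endothelial cells. In tumour cells it had 7.99, 7.94 and 7.79 in untreated, 7.96, 8.13, 7.95 and 7.99 in 7-day and 8.52, 9.15, 8.34, 8.75 and 8.38 in 21-day cells. In both cell types all 21-day arrays were above all 7-day and untreated arrays, while the 7-day arrays overlapped the untreated ones. The first 21-day endothelial array had the lowest Krt8 of all endothelial arrays, 7.32, and the lowest Ero1a of its group, 7.46. The fourth had the highest Krt8, 11.02, and the highest Ero1a, 8.10. The part of epithelial cells in the endothelial Ero1a signals was not tested. The 21-day differences of Ero1a were 0.87 ± 0.19 in endothelial and 0.72 ± 0.16 in tumour cells (adjusted p = 0.659 and 0.132). The difference of 21-day from 7-day tumour cells, 0.61 ± 0.14, missed the threshold (adjusted p = 0.0642) and passed it when the dimmer 50% or 30% of genes were left out (adjusted p = 0.0421 and 0.0481). It also passed without the fifth 21-day tumour array (0.68, adjusted p = 0.0490). Without the second 21-day tumour array the difference was 0.48, and over all alternative fits its adjusted p by limma ran from 0.0421 to 0.167. Plod1, a lysyl hydroxylase of collagen, had 9.88, 10.32 and 10.54 in untreated, 9.49, 9.77 and 9.79 in 7-day and 10.05, 10.03, 9.95, 9.55 and 9.54 in 21-day endothelial cells. In tumour cells Plod1 had 7.33, 7.90 and 7.51 in untreated, 8.05, 7.34, 7.57 and 8.03 in 7-day and 8.17, 8.33, 8.26, 8.38 and 8.43 in 21-day cells. The tumour arrays of 21 days were above all others of that cell type, by 0.73 ± 0.17 against untreated cells (adjusted p = 0.161), whereas all 7-day endothelial arrays were below the untreated ones, by -0.56 ± 0.21 (adjusted p = 0.588). The 21-day endothelial difference was -0.42 ± 0.18, and -0.28 without the third untreated endothelial array. The difference between the cell types in the 21-day effect, endothelial minus tumour, was -1.16 ± 0.26, the smallest p of the set in that test, and was not called (limma, adjusted p = 0.23). P4ha1, the catalytic subunit of collagen prolyl hydroxylase, had 7.11, 6.80 and 5.66 in untreated, 6.79, 6.97 and 6.91 in 7-day and 6.97, 6.93, 7.35, 7.65 and 7.26 in 21-day endothelial cells. In tumour cells P4ha1 had 7.64, 7.76 and 7.77 in untreated, 8.02, 7.66, 7.71 and 7.89 in 7-day and 7.94, 8.34, 7.86, 8.16 and 8.53 in 21-day tumour cells. The third untreated endothelial array was the lowest of all 23, and all 21-day tumour arrays were above the untreated ones. Its 21-day differences were 0.71 ± 0.29 and 0.44 ± 0.14 in endothelial and tumour cells, and the endothelial one was 0.28 without the third untreated endothelial array. Plod2, the lysyl hydroxylase of collagen telopeptides, had 7.01, 6.06 and 6.46 in untreated, 5.89, 6.67 and 6.76 in 7-day and 6.40, 6.35, 7.02, 7.17 and 6.53 in 21-day endothelial cells. In tumour cells Plod2 had 8.04, 7.90 and 8.59 in untreated, 8.65, 8.55, 8.57 and 8.23 in 7-day and 8.58, 8.82, 8.30, 8.43 and 8.65 in 21-day tumour cells. Its treated and untreated arrays overlapped in each cell type, and its 21-day differences were 0.19 and 0.38. P4ha2, the other catalytic subunit, differed by 0.58 ± 0.20 in 7-day tumour cells and Lox, the oxidase that cross-links collagen, by 0.73 ± 0.26. In both genes all 7-day tumour arrays were above the untreated ones, and neither was called. The P4ha2 difference was 0.38 without the first 7-day tumour array. Lox was dim, with a mean level at the 34.6th percentile of all genes. Its second 7-day tumour array was at 4.85, against 3.74 to 4.07 on the others of that group.

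Of the genes of secreted factors, Stc1 and Stc2 had low signals on every tumour array. Stc1, a glycoprotein hormone gene, had 6.68, 7.61 and 8.86 in untreated, 6.33, 6.01 and 6.87 in 7-day and 7.41, 7.86, 8.03, 7.47 and 8.24 in 21-day endothelial cells. In tumour cells its signals ran from 3.62 to 3.92 over all 12 arrays. The 7-day endothelial arrays were below the 21-day ones without overlap, with a difference of 21-day from 7-day cells of 1.40 ± 0.42 and of 7-day from untreated cells of -1.32 ± 0.47 (adjusted p = 0.421 and 0.579). Without the third untreated endothelial array the 7-day difference was -0.74. The related gene Stc2 had 5.52, 5.59 and 5.83 in untreated, 5.78, 6.13 and 4.93 in 7-day and 6.73, 6.39, 5.26, 7.84 and 5.66 in 21-day endothelial cells, and from 4.04 to 4.45 over all tumour arrays. The fourth 21-day endothelial array was the highest, and the 21-day difference in endothelial cells was 0.73 ± 0.51, and 0.36 without that array. Adm, the gene of the vasodilator peptide adrenomedullin, had 5.96, 4.54 and 4.53 in untreated, 6.20, 5.59 and 5.49 in 7-day and 5.84, 7.89, 4.54, 6.67 and 6.03 in 21-day endothelial cells. In tumour cells Adm had 3.72, 3.82 and 3.59 in untreated, 3.98, 3.89, 3.5 and 3.56 in 7-day and 4.29, 5.29, 4.0, 3.87 and 4.28 in 21-day cells. Its spread was widest in 21-day endothelial cells, and the 21-day differences were 1.18 ± 0.63 and 0.64 ± 0.26 in endothelial and tumour cells, with tumour arrays of 21 days all above the untreated ones. Without the second 21-day array of each cell type they were 0.76 and 0.40. Mif, a cytokine gene, had 11.22, 10.37 and 11.04 in untreated, 11.27, 10.78 and 10.82 in 7-day and 10.98, 11.57, 11.52, 11.69 and 10.54 in 21-day endothelial cells. In tumour cells Mif had 12.10, 12.19 and 11.81 in untreated, 12.14, 12, 12.08 and 12.19 in 7-day and 12.15, 12.28, 12.33, 12.11 and 12.11 in 21-day tumour cells. The platform assigns 3 clusters to Mif that correlate at 0.993 or more over the arrays, and near-identical copies of the gene may share its probes. The lipoprotein receptor gene Vldlr ran from 3.22 to 3.56 in tumour arrays, and its 21-day difference in endothelial cells was 0.28 ± 0.36.

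The 21-day comparisons of the cell types share no array and can be set side by side. Of the 35 genes 24 had positive differences in both, 8 in tumour cells alone, 1 in endothelial cells alone and 2 in neither. Over all genes 26.2% were positive in both. In both cell types 4 genes were higher at an unadjusted p under 0.05, namely Bnip3, Egln3, Ero1a and P4ha1 (the last of them resting on 1 untreated endothelial array), and 78 of all genes were. Across the 35 genes the 2 sets of differences correlated at 0.614, and across all genes at 0.0891, given as a description since genes are not independent replicates. Whether the 2 cell types were sorted from the same tumours is not given in the labels. Krt8 was 7.32, 10.09, 10.30, 11.02 and 8.66 on the 21-day and 10.06, 8.45 and 8.23 on the untreated endothelial arrays. On tumour arrays it ran from 11.22 to 11.65. The part of epithelial cells in these shared counts and this correlation was not tested. The difference between the cell types in the treatment effect was tested over all 23 arrays. For the 21-day effect 0 genes of the set were called by limma, as among all genes (0.0%). At an unadjusted p under 0.05, 0 were higher and 2 lower in endothelial minus tumour cells (Plod1 and Higd1a, at -1.16 and -1.27, the second of which was -0.62 without the third untreated tumour array), against 2.78% and 2.55% of all genes. For the 7-day effect 0 were called, where 0.0953% of all genes were. At an unadjusted p under 0.05, 1 was higher and 6 lower, against 6.83% and 4.22% of all genes. The 3 with the smallest p were Egln1 (-0.69 ± 0.22), Stc1 (-1.25 ± 0.47) and Plod1 (-0.73 ± 0.28), with adjusted p = 0.295, 0.355 and 0.358. Stc1 was at -0.68 without the third untreated endothelial array.

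**Figure D3:**
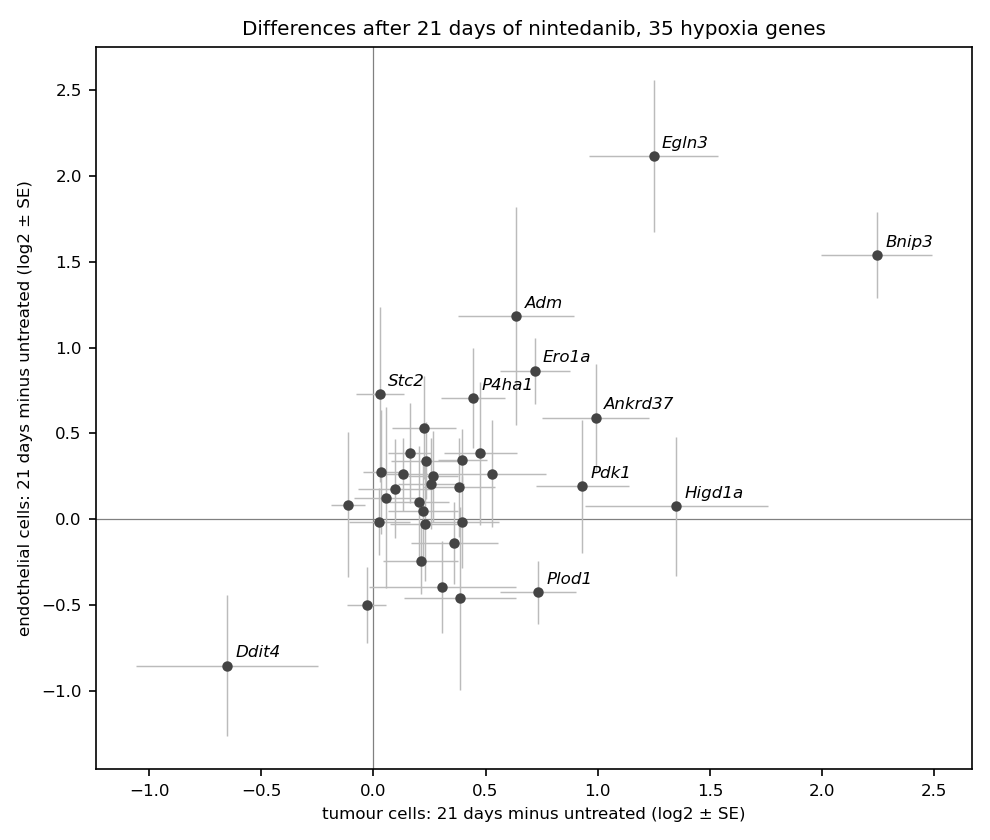
Difference of 21-day from untreated cells (log2 ± SE) for the 35 hypoxia genes, tumour cells on the horizontal and endothelial cells on the vertical axis; names mark genes past 0.6 in either. Bnip3 lies at 1.54 in endothelial and 2.24 in tumour cells and Egln3 at 2.12 and 1.25, 24 genes are positive on both axes, and Ddit4 is negative on both.

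In untreated tumours the set was split by cell type rather than shifted one way. Of the 35 genes 16 were called between untreated endothelial and untreated tumour cells (limma), where 18.3% of all genes were. Of these 9 were higher and 7 lower in endothelial cells, against 8.18% and 10.2% of all genes. The median difference was 0.23, against 0.03 over all genes, and its sign turned without the third untreated tumour array (-0.01) and without the dimmer 50% of genes (-0.04). Taken unadjusted, p under 0.05 was reached by 14 genes higher and 9 lower in endothelial cells, against 13.6% and 16.1% of all genes. Epas1 was higher in endothelial cells by 4.57 ± 0.36, 23.8-fold, and Stc1 by 3.86 ± 0.34 (adjusted p = 7.63e-09 and 5.69e-08, n = 3 each). Plod1 was higher by 2.67 ± 0.20 and Hif1a by 1.88 ± 0.24 (adjusted p = 5.78e-09 and 1.11e-05). Ddit4 (1.59 ± 0.48), Stc2 (1.5 ± 0.42), Ankrd37 (1.28 ± 0.32), Pdk1 (1.26 ± 0.36) and Ndrg1 (1.04 ± 0.27) were also higher in endothelial cells. Ddit4 and Ankrd37 were not called without the 3 endothelial arrays high in macrophage markers, at 0.96 and 0.99 (adjusted p = 0.197 and 0.0640). All 14 macrophage markers were also positive between the untreated cell types (median 1.27, 1 called). Of the pericyte markers 9 of 10 were positive there (median 0.73, 7 called higher and 1 lower). Of the dissociation stress genes 11 of 11 were negative (median -0.55, 4 called lower). The part of these 3 lists in the other calls was not tested. The genes lower in endothelial cells were Plod2 by -1.67 ± 0.27, Fam162a by -1.25 ± 0.36, P4ha1 by -1.20 ± 0.26, Mif by -1.16 ± 0.24, Cited2 by -1.10 ± 0.29, Ero1a by -0.97 ± 0.20 and Pdk3 by -0.83 ± 0.27. Of the 16 calls, those of Epas1, Stc1, Plod1, Hif1a, Plod2, P4ha1, Mif, Cited2 and Ero1a held without any single array. Ankrd37 was not called without the first untreated endothelial array (0.99, adjusted p = 0.0512). Ndrg1 was not called without the first untreated tumour array (0.84, adjusted p = 0.0670) or the second untreated endothelial one (0.68, adjusted p = 0.0808). Stc2 was not called without the first untreated tumour array (1.45, adjusted p = 0.0523) or the third untreated endothelial one (1.41, adjusted p = 0.0502). Pdk1 was not called without the second or the third untreated tumour array or the first untreated endothelial one, at 1.22, 1.09 and 1.15 (adjusted p = 0.0518, 0.0818 and 0.0605). Fam162a lost its call without the first untreated tumour array (-1.12, adjusted p = 0.0813) and without the second or the third untreated endothelial array (-1.09 and -0.90, adjusted p = 0.0858 and 0.112). Ddit4 lost its call without the first or the third untreated tumour array (1.54 and 1.09, adjusted p = 0.0764 and 0.163) and without the first untreated endothelial one (0.96, adjusted p = 0.168). Pdk3 lost its call without the first or the second untreated tumour array (-0.72 and -0.81, adjusted p = 0.135 and 0.0898) and without the second or the third untreated endothelial one (-0.64 and -0.84, adjusted p = 0.177 and 0.0701). The lysyl hydroxylase genes thus had opposite signs, with Plod1 at 10.25 ± 0.33 in endothelial and 7.58 ± 0.30 in tumour cells (SD) and Plod2 at 6.51 ± 0.47 and 8.18 ± 0.37. In tumour cells every Plod2 array was above every endothelial one. Cited2 had 9.09, 8.62 and 8.82 in untreated endothelial and 9.86, 9.90 and 10.07 in untreated tumour cells. Pdk3 had 6.31, 5.58 and 5.99 in untreated endothelial and 6.99, 6.83 and 6.53 in untreated tumour cells. In both genes all untreated endothelial arrays were below all untreated tumour arrays. Bnip3 and Egln3 did not pass between the untreated cell types, at -0.53 ± 0.29 and 0.23 ± 0.44 (adjusted p = 0.244 and 0.78).

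**Figure D4:**
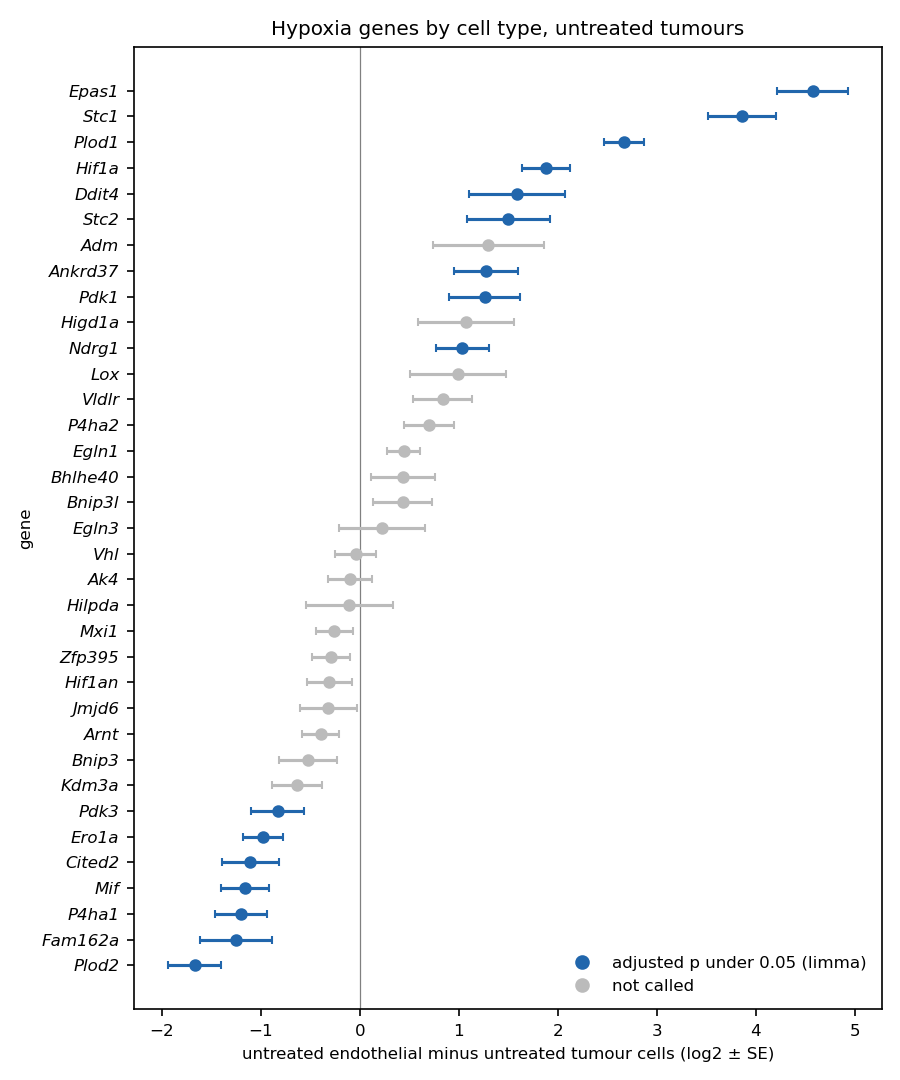
Difference of untreated endothelial from untreated tumour cells (log2 ± SE, n = 3 each) for the 35 hypoxia genes, sorted, with genes called by limma in blue and others in grey. Epas1, Stc1 and Plod1 lie farthest to the right and Plod2 farthest to the left, and Bnip3 and Egln3 are grey.

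Other genes of the pathway were read from 2 lists, 11 measured genes of the HIF switch and 29 other genes known as hypoxia-induced, which include the glycolytic ones. In 21-day tumour cells the switch genes had a median difference of -0.02, with 4 of 11 positive and 0 called by limma (2 lower at an unadjusted p under 0.05). The 29 other targets had a median of 0.17, with 21 positive and 1 called higher, where 0.0903% of all genes were called. Of the 29, 11 were higher and 1 lower at an unadjusted p under 0.05, against 5.97% and 4.16% of all genes. The called gene was Aldoa, the glycolytic aldolase, with 11.29, 11.58, 11.39, 11.61 and 11.36 in 21-day and 10.89, 10.72 and 10.84 in untreated tumour cells, all 21-day arrays above the untreated ones. It rose by 0.63 ± 0.09 (limma, adjusted p = 0.0281). In 21-day endothelial cells the median of the 29 was 0.32, 23 were positive and 0 were called by limma. There 4 were higher and 1 lower at an unadjusted p under 0.05, against 2.58% and 1.59% of all genes. The 3 with the smallest p were Pgk1 (0.65 ± 0.17), Ldha (0.65 ± 0.18) and Aldoa (0.32 ± 0.11), all of them glycolytic enzymes. After 7 days, and between 21 and 7 days, 0 of the 40 genes of both lists were called by limma in either cell type. There 2 were higher and 2 lower in 7-day endothelial cells at an unadjusted p under 0.05, against 4.94% and 3.24% of all genes. In 7-day tumour cells 6 were higher and 2 lower, against 6.19% and 4.83%. Between 21 and 7 days 5 were higher and 1 lower in endothelial cells, against 4.09% and 5.31% of all genes. In tumour cells 7 were higher and 1 lower, against 6.42% and 5.44%. Those with the smallest p after 7 days were Siah1a (-0.86 ± 0.27), Pfkfb4 (0.35 ± 0.14) and Slc2a1 (1.19 ± 0.49) in endothelial cells and Aldoa (0.36 ± 0.09), Klf6 (0.79 ± 0.22) and Angptl4 (-0.40 ± 0.13) in tumour cells. Slc2a1 had 9.23, 9.30 and 11.32 in 7-day and 8.88, 8.49 and 8.89 in untreated endothelial cells, so its difference rests largely on the third 7-day array. Pfkfb4 was dim, with a mean level at the 24.7th percentile of all genes. Between the untreated cell types 3 of the 40 genes were called higher and 8 lower in endothelial cells, against 8.18% and 10.2% of all genes. The chemokine receptor gene Cxcr4 was higher by 5.72 ± 0.48, Pfkfb3, which makes an activator of glycolysis, by 2.26 ± 0.34 and the nitric oxide synthase gene Nos2 by 1.49 ± 0.34. Vegfa, the main vascular growth factor gene, had 8.24, 5.56 and 6.47 in untreated endothelial and 9.20, 9.92 and 9.41 in untreated tumour cells, and was lower in endothelial cells by -2.76 ± 0.54 (adjusted p = 0.00103). The others lower were Tgfb3 (-2.64), Angptl4 (-1.66), Tpi1 (-1.13), Insig2 (-0.85), Rbx1 (-0.76), Gys1 (-0.76) and Pgk1 (-0.69).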

How the data were processed

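RNA of sorted cells was hybridised to 23 Affymetrix gene arrays, 1 per sample. The authors made the log2 signals of the transcript clusters with RMA and oligo, per the submitters' processing notes, with versions not given in the sources used here. NuGEN kits were used for amplification, per the labels. With 3 to 5 arrays a group, their number limits the precision. Of 35556 clusters 21789 named 1 gene in the platform annotation; symbols were updated through the RefSeq table of GRCm38.p6, and the cluster with the highest mean was kept per gene, leaving 19938 genes with no filter on dim ones. Differences were tested with limma 3.58.1 in R 4.3.3 across all genes, two-sided, with Benjamini-Hochberg adjustment in each comparison and a call at adjusted p under 0.05. Treatment was tested within the 11 endothelial and the 12 tumour arrays, and cell type and its difference in treatment effect over all 23. Errors of differences are limma's standard errors; errors of means are SDs.

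The genes and lists were chosen with earlier results of these data known. Every measured gene of the set is described. Values of single arrays are given for the HIF subunits, Bnip3, genes called anywhere and the 3 with the smallest p in each comparison; of the other pathway lists the called genes are named, or else up to 3 with the smallest p. No sample's batch is known here. The fit was tested on simulated data, with noise drawn independently for each gene and array. In 7-day, 21-day and 21-day against 7-day tumour cells it recovered 89%, 95% and 95% of 2-fold changes. In the same endothelial comparisons it recovered 56%, 49% and 64%. Alternatives were the replicate number as a block, filters on dim genes, a variance trend, array weights, the mean of a gene's clusters, median centring, repeated quantile normalization, another set of arrays in the fit and leaving out each array. A fit without the 3 endothelial arrays richest in macrophage markers was added after seeing the data.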

Additional observations from a re-analysis of the deposited data

Results flagged for a closer look

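Among 105 combinations of a hypoxia gene and a group of 4 or 5 arrays, 5 held an array whose gap to its nearest neighbour was a larger part of the group's range than Dixon's 95% critical value. Chance gives about 1 in 20 such groups. In 7-day tumour cells Ak4 was 4.98 on the first array, against 5.26 to 5.32 on the other 3, and Mxi1 was 6.24 on the fourth, against 6.41 to 6.44. In 21-day tumour cells Lox was 4.51 on the second array, against 3.60 to 3.71 on the other 4, and Stc2 was 4.45 on the first, against 4.06 to 4.16. In 21-day endothelial cells Vldlr was 5.77 on the first array, against 3.89 to 4.36 on the other 4.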

How the results depend on the processing

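The number of arrays limits these results, and calls in endothelial cells depended on which arrays shared the estimate of the spread. Same-numbered arrays did not deviate together (correlations from -0.149 to 0.112), so the numbers were not taken to pair samples. With the replicate number as a block nonetheless, 21-day against untreated tumour cells gave 2 called genes and 0 of the hypoxia set (Bnip3 at 2.11, adjusted p = 0.0951), 21-day against 7-day tumour cells gave 2 of the set (Bnip3 and Ero1a), and the 7-day difference between cell types gave 0 genes. In a fit over all 23 arrays (4 groups for the cell type differences) the called genes numbered 30 in 7-day, 9 in 21-day and 96 in 21-day against 7-day tumour cells, and 106, 34 and 262 in the same endothelial comparisons. There 2 genes of the set were called in 21-day endothelial cells and 4 against 7 days (Egln1, Ero1a, Stc1 and Bnip3), and the 7-day and 21-day cell type differences gave 8 and 1 genes. With the 6 untreated arrays alone, P4ha1, Ankrd37, Ndrg1, Fam162a, Ddit4 and Pdk3 were not called between the untreated cell types, and Pdk3 was not called after repeated quantile normalization either. Array weights gave 67 and 10 genes in 7-day and 21-day tumour cells, and 11 and 2 for the cell type differences; repeated quantile normalization gave 11 in 21-day tumour cells and a median of 0.129 over the set between 21-day and 7-day endothelial cells; a variance trend gave 2 genes in 21-day endothelial cells. Filters at the 50th and 30th percentile gave 2 genes of the set each in 21-day against 7-day tumour cells, and medians of -0.041 and 0.094 between the untreated cell types. The mean of all clusters gave a median of -0.342 for the 7-day cell type difference. Leaving out the 3 endothelial arrays high in macrophage markers, chosen after seeing the data, gave a median of 0.078 between 21-day and 7-day endothelial cells and 2 genes for the 21-day cell type difference. The causes were not tested.

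Leaving out each array in turn gave 23 to 105 called genes in 7-day, 5 to 30 in 21-day and 95 to 307 in 21-day against 7-day tumour cells, 0 to 2, 0 to 1 and 0 to 5 in the same endothelial comparisons, 2692 to 4138 between untreated cell types, and 1 to 138 and 0 to 5 for the 7-day and 21-day cell type differences. Genes of the set called were 0 to 1 in 7-day, 1 to 2 in 21-day and 0 to 2 in 21-day against 7-day tumour cells, and 11 to 18 between untreated cell types. Medians over the set were 0.092 to 0.165, 0.249 to 0.339 and 0.100 to 0.155 in the tumour comparisons, -0.079 to 0.153, 0.171 to 0.278 and 0.058 to 0.253 in the endothelial ones, -0.014 to 0.385 between untreated cell types, and -0.330 to -0.148 and -0.204 to -0.034 for the cell type differences. Within the set no difference of a called gene, or of the 3 with the smallest p in a comparison, changed sign under any alternative. Other differences of the set did, in 4 to 17 of the 35 genes per comparison, among them Zfp395 (0.26, and -0.14 with the mean of its clusters) and Ndrg1 (0.18, and -0.01 without the 3 endothelial arrays) in 21-day endothelial cells.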
